A study of Homo sapiens with 6 samples.

Results

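Repeat cultures of a cell line are treated as equals in most comparisons, and the data below show which transcripts differed between them when the siRNA was held fixed. The 3 arrays titled as biological replicate 2 were set against the 3 titled as biological replicate 1, with the arrays paired within treatment, so that all 6 arrays of the series entered. The cells were HCT116, an established human colon cancer line of epithelial origin. Each replicate number holds 1 culture given a control siRNA, 1 given siH19-1 and 1 given siH19-2, where H19 is a long noncoding RNA that also carries a microRNA. All cultures were lipofected at 50 nM for 48 h with RNAiMAX, and no culture without an siRNA was analysed here. Total RNA from each was hybridised to an Affymetrix whole-transcriptome array, on which a transcript cluster stands for 1 gene or transcribed locus. Values are log2 signals after robust multi-array averaging (RMA).

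Of 67528 transcript clusters, 24721 reached a log2 signal of 5 in 2 or more arrays and were tested. They held 11191 genes named by 1 symbol, 834 clusters with several symbols and 12172 with none. The labels do not say whether the repeat cultures differed by passage, day or flask, so p-values measure only the spread between these arrays. The titles number the replicate 1 arrays before the replicate 2 arrays, and a difference between cultures and a difference between array positions cannot be told apart. The line's epithelial markers were present, with mean log2 signals of 11.24 for EPCAM, 13.8 for KRT8 and 12.24 for KRT18. CDX2, VIL1, LGALS4 and MUC13 of the differentiated colon lay between 3.5 and 4.22, and 3 of 51 markers of other cell types had a mean of 5 or more. The highest of these were SYT1 of the neuron and muscle list, at 9.78, and CD68 of the immune list, at 7.14. The row shared by H19 and MIR675 read 4.82 and 5.02 with the control siRNA, 4.90 and 4.99 with siH19-1, and 4.95 and 5.02 with siH19-2, in replicates 1 and 2. These values lie close to the array medians of 4.1 to 4.2 over all clusters, and the row gave no check of the siRNA labels.

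Heat shock factor 1 drives chaperone genes when unfolded protein accumulates. The MuvB and FOXM1 complexes switch on mitotic genes late in the cell cycle, through a promoter element called the cell cycle genes homology region. Growth factor signalling through ERK induces immediate-early genes and its own phosphatases, and REV-ERB repressors cycle with the circadian clock.

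In the replicate 2 cultures, heat shock chaperones such as DNAJB1 (1.82-fold) and HSPA1A (1.87-fold) were lower than in replicate 1 under all 3 siRNAs. Mitotic genes such as ANLN (1.46-fold), the microRNA gene MIR21 (2.35-fold), the transcription factor SOX9 (1.96-fold) and short structured RNAs were lower as well. ABCC2 (1.75-fold) and the clock repressors NR1D1 and NR1D2 (1.48-fold each) were higher under all 3. None of these differences passed the test over all clusters, and their values in every array are given below.

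The control siRNA pair, the siH19-1 pair and the siH19-2 pair all separated by replicate on the third principal component, which carried 12.5% of the variance. Scores on it were -22.2, -17.1 and -8.53 in the replicate 1 arrays and 25.3, 10.6 and 11.9 in the replicate 2 arrays. Treatment took most of the spread: of the summed squares over the tested clusters, 76.09% lay between treatments, 12.12% between replicates and 11.78% in the remainder. Of the 24721 tested clusters, 4195 had a larger sum of squares between replicates than between treatments. The sum between treatments takes in more groups than that between replicates. Unrelated variation alone would also give such clusters, and the count was not tested against it.

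**Figure D1:**
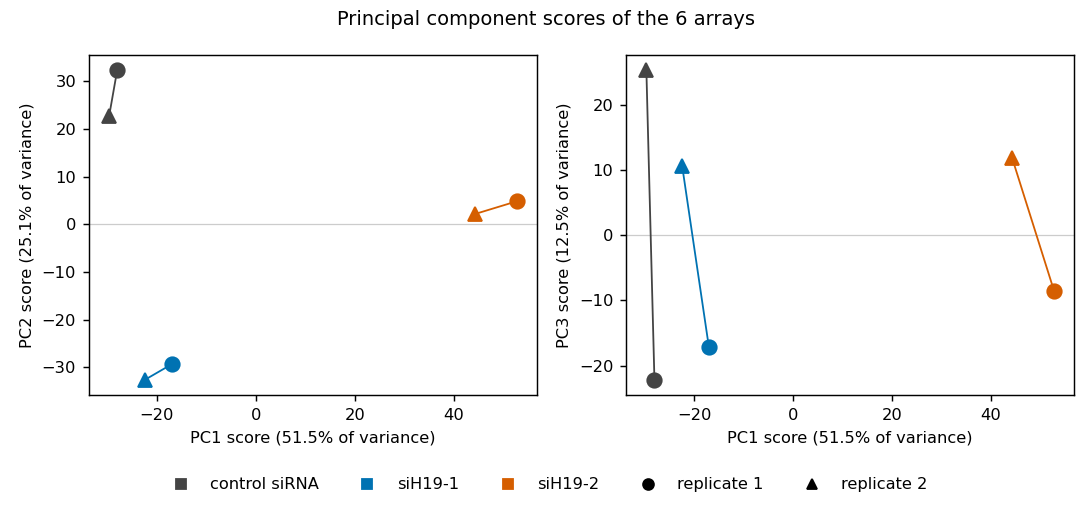
Principal component scores of the 6 arrays over the tested clusters, with PC1 (51.5% of variance) on the horizontal axes and PC2 (25.1%) or PC3 (12.5%) on the vertical axes. Colours are treatments, circles are replicate 1, triangles are replicate 2 and lines join the arrays of a pair. The treatments separate on PC1 and PC2, and on PC3 the 3 circles lie below 0 and the 3 triangles above it.

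No cluster passed the test between replicates. With limma's moderated test on treatment plus replicate, 0 of 24721 clusters (0%) had a Benjamini-Hochberg adjusted p under 0.05, and the smallest was 0.180. At an unadjusted p under 0.05 there were 3720 clusters, 604 higher in replicate 2 (2.44%) and 3116 lower (12.6%). Quantile normalization moved that split to 1623 higher and 1857 lower, and scaling to the array's control rows to 953 and 2085. The signal was lower in replicate 2 in all 3 pairs for 6919 clusters (28%) and higher in all 3 for 2244 (9.08%). The 3 values of a replicate lay wholly below the 3 of the other for 1527 clusters lower in replicate 2 (6.18%) and 364 higher (1.47%). Over the 11191 genes, the shares lower and higher at an unadjusted p under 0.05 were 9.51% and 1.51%, and those shares are the background for the gene lists below. The genes lower or higher in all 3 pairs were 28.1% and 9.03%, and those whose replicate groups did not overlap were 4.09% and 0.903%. With 3 pairs, an exact sign-flip test of a single gene could not give a two-sided p under 0.25.

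Testing 1 cluster per gene symbol called 13 of 11191 genes (0.116%), 2 higher and 11 lower in replicate 2. They were DNAJB1, HSPA1A, MIR21, PRKAA2, FAM72D, 6 pseudogenes of 5S ribosomal RNA, and, on the higher side, ABCC2 and CYP4F11. Scaling to the control rows called 28 of 25015 clusters (0.112%), 1 higher and 27 lower. Many of these were clusters of HSPA1A and HSPA1B or of 5S pseudogenes, near-identical copies that can share signal and do not count as separate genes. Every other alternative called 0. The gene values that follow are therefore described by their size and by the 3 pairs.

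The pairs differed in width. The control siRNA pair had a median difference of -0.11 over the tested clusters, against -0.05 for siH19-1 and -0.02 for siH19-2, and 304, 128 and 91 clusters were lower by 1 or more on the log2 scale while 83, 52 and 66 were higher by as much. In the control pair the median shift grew with signal, from -0.01 in the lowest of 10 equal bins of signal to -0.2 in the highest. Between the same bins it went from -0.04 to -0.09 in the siH19-1 pair and from -0.01 to -0.03 in the siH19-2 pair. For the mean of the 3 pairs it went from -0.017 to -0.107. The array's rows for ERCC spike-in sequences had array means between 4.15 and 4.44. They differed by a median of 0.3 in the control pair, 0.06 in the siH19-1 pair and -0.02 in the siH19-2 pair. The 1465 exon and junction control rows had array means between 12.83 and 13.1. Their values in the same pairs were -0.18, 0.02 and 0.01. The part of these shifts in the results was not tested. The median over all genes was -0.043, or 0.028 after quantile normalization.

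Chaperone genes of the heat shock response had the lowest median of the gene lists with 10 or more tested members. Of 17 tested members, 10 were lower in replicate 2 at an unadjusted p under 0.05 and 0 higher, against 9.51% and 1.51% of all genes. In all 3 pairs 14 were lower, against 28.1% of all genes. The list's median was -0.30, with -0.46, -0.24 and -0.25 in the control siRNA, siH19-1 and siH19-2 pairs, and it was -0.179 after quantile normalization.

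DNAJB1, an HSP40 co-chaperone that hands clients to HSP70, read 10.37, 10.57 and 9.17 in the control siRNA, siH19-1 and siH19-2 cultures of replicate 1. The same cultures of replicate 2 read 9.48, 9.72 and 8.31. The difference was nearly equal in each pair, at -0.89, -0.85 and -0.86, although the siH19-2 arrays of both replicates lay below the other treatments. This is 1.82-fold lower in replicate 2 (SE 0.07 on the log2 scale), with an adjusted p of 0.18 in limma's fit over all clusters and 0.0359 with 1 cluster per gene symbol. HSPA1A, the stress-inducible HSP70, read 8.15, 8.20 and 6.45 in replicate 1 and 7.08, 7.28 and 5.73 in replicate 2. It had the same pattern of a lower level with siH19-2 and a lower value in replicate 2 of every pair, and was 1.87-fold lower overall. HSPA1B is a near-identical copy, so the signals of the 2 genes cannot be separated with certainty, and the clusters that list both had the same direction. Among them, clusters of higher signal than the HSPA1A cluster were 1.90-fold, 2.27-fold and 2.47-fold lower in replicate 2.

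HSPH1, the HSP110 exchange factor of HSP70, read 14.13, 13.75 and 12.88 in replicate 1 and 13.29, 13.15 and 11.85 in replicate 2. CHORDC1, a co-chaperone of HSP90, read 11.75, 12.72 and 11.58 in replicate 1 and 11.26, 12.12 and 10.81 in replicate 2. The replicates of both genes overlap across treatments, and within each treatment replicate 2 was the lower. DNAJA1, another HSP40, read 13.55, 13.27 and 13.25 in replicate 1 and 13.09, 12.90 and 12.84 in replicate 2, so that its replicate groups did not overlap. STIP1, which bridges HSP70 and HSP90, was lower by a mean difference of -0.42, DNAJB4 by -0.34 and BAG3, an HSP70 partner in selective autophagy, by -0.31.

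Other chaperones of the list had smaller differences. The difference was -0.21 for HSP90AB1, the housekeeping HSP90, and -0.15 for HSP90AA1, its inducible relative, which turned to 0.036 after quantile normalization. HSPD1, the mitochondrial chaperonin, had -0.07, or 0.066 after quantile normalization. HSF1, the transcription factor of the response, read 7.90, 7.75 and 6.57 in replicate 1 and 7.61, 7.89 and 6.91 in replicate 2, with no common direction.

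**Figure D2:**
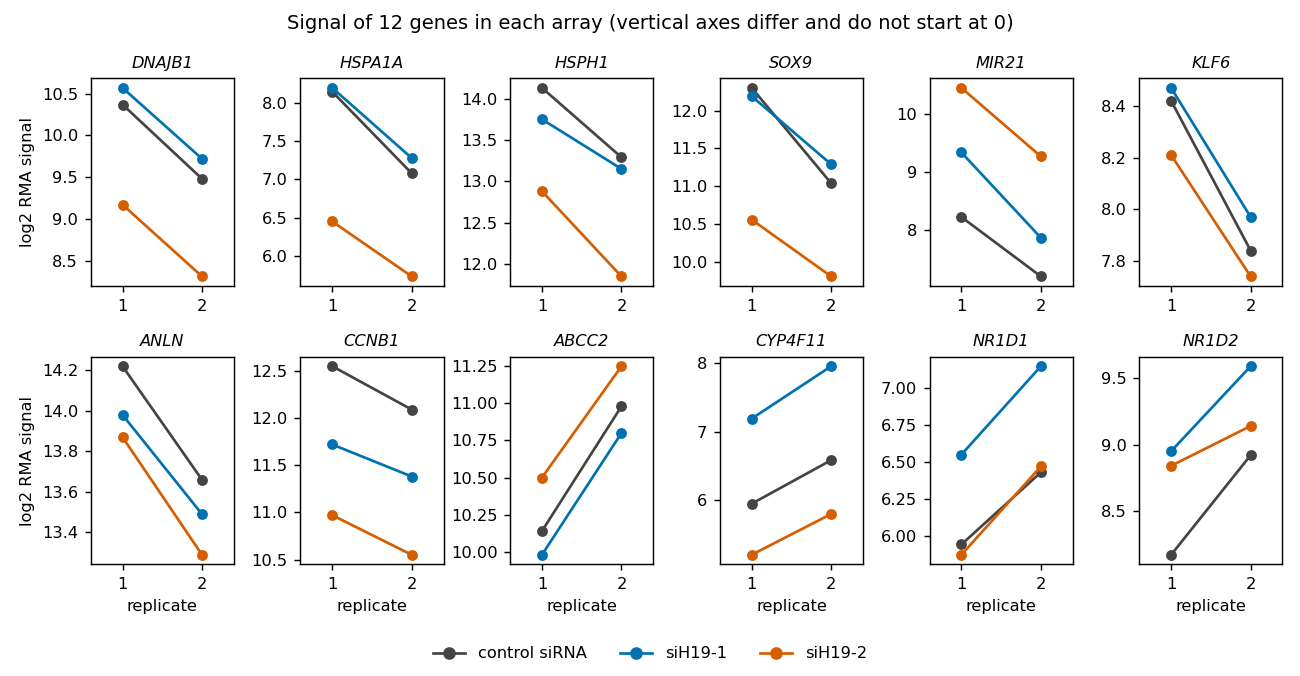
Log2 RMA signal (vertical axis, a different range in each panel and not starting at 0) of 12 genes in replicate 1 and replicate 2 (horizontal axis). Each point is 1 array, and lines join the arrays of the same treatment. The lines of the first 8 genes slope down in all 3 treatments and those of ABCC2, CYP4F11, NR1D1 and NR1D2 slope up in all 3.

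Heat shock factor 1 binds arrays of the short unit GAA in alternating orientation. The promoter windows of RefSeq (build GRCh38.p14), 250 bases before to 50 after each annotated start, were searched for 2 such units, GAANNTTC, and for 3, GAANNTTCNNGAA, on both strands, where each match to the longer motif also contains the shorter. Of the 17 tested chaperone genes 15 had a window. The shorter motif was in the windows of 8 of them, against 8.21% of all 27305 genes, and the longer in 5, against 0.608%. The stretches of CHORDC1 and DNAJB1 from base -100 to base -1 are shown because they belong to members with some of the larger differences, with the matches to GAANNTTC in capitals. The CHORDC1 stretch is chr11:90223050-90223149 on the minus strand and that of DNAJB1 is chr19:14518398-14518497 on the minus strand.
CHORDC1: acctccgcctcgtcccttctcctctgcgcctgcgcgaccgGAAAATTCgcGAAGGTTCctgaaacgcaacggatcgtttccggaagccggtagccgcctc
DNAJB1: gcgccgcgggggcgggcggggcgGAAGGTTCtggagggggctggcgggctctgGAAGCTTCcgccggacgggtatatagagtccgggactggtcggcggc
In CHORDC1 the matches begin at bases -60 and -50 and lie 2 bases apart, and a further GAA follows after 2 more bases. In DNAJB1 they begin at bases -77 and -47 and stand alone. The 5 genes with the longer motif were CHORDC1, DNAJA1, HSP90AB1, HSP90AA1 and HSPD1, and the last 3 had the smaller differences given above. Whether either motif goes with the size of the difference was not tested. A match describes the letters of the window and not binding in these cells.

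Genes of the G2 phase and mitosis were lower in replicate 2 in nearly the whole list. Of 34 tested members, 22 (64.7%) were lower at an unadjusted p under 0.05 and 0 higher, against 9.51% and 1.51% of all genes. In all 3 pairs 29 were lower, against 28.1% of all genes. The median was -0.237, with -0.275, -0.22 and -0.33 in the control siRNA, siH19-1 and siH19-2 pairs, and -0.148 after quantile normalization. The range over members was -0.543 to -0.003. Genes of the G1/S transition and DNA replication did not share this: of 36 tested, 1 was lower and 0 higher, with a median of 0.022. In bulk RNA, fewer cells in mitosis and less mitotic RNA per cell cannot be told apart.

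ANLN, the anillin scaffold of the contractile ring, had the largest difference of the list. It read 14.22, 13.98 and 13.87 in replicate 1 and 13.66, 13.49 and 13.29 in replicate 2, and the replicate groups did not overlap. It was 1.46-fold lower in replicate 2, with an adjusted p of 0.18 in limma's fit. KIF20A, a kinesin of the central spindle, read 10.61, 10.42 and 9.47 in replicate 1 and 10.18, 10.02 and 8.95 in replicate 2. CCNB1, the cyclin of the mitotic kinase, read 12.55, 11.72 and 10.97 in replicate 1 and 12.09, 11.38 and 10.55 in replicate 2. Both had a spread between treatments wider than that between replicates, and each pair difference lay between -0.52 and -0.34.

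CDK1, the kinase that CCNB1 activates, read 10.09, 9.48 and 9.35 in replicate 1 and 9.49, 9.30 and 8.79 in replicate 2. CENPF, a kinetochore protein, had pair differences of -0.37, -0.41 and -0.44, and HMMR, a spindle protein, of -0.32, -0.42 and -0.47. TOP2A, the topoisomerase that untangles sister chromatids, read 12.21, 12.18 and 12.50 in replicate 1 and 11.97, 11.79 and 12.06 in replicate 2, without overlap. For TPX2, an activator of AURKA, 93.9% of the spread over the 6 arrays lay between replicates, with a small difference of -0.22. AURKA itself, a spindle pole kinase, differed by -0.40 without overlap of the replicate groups. The list's smallest difference was that of FOXM1, a transcription factor of mitotic genes, at -0.003. It had pair differences of -0.18, -0.13 and 0.30. MKI67, the gene of the proliferation marker Ki-67, had -0.11, or 0.046 after quantile normalization.

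**Figure D3:**
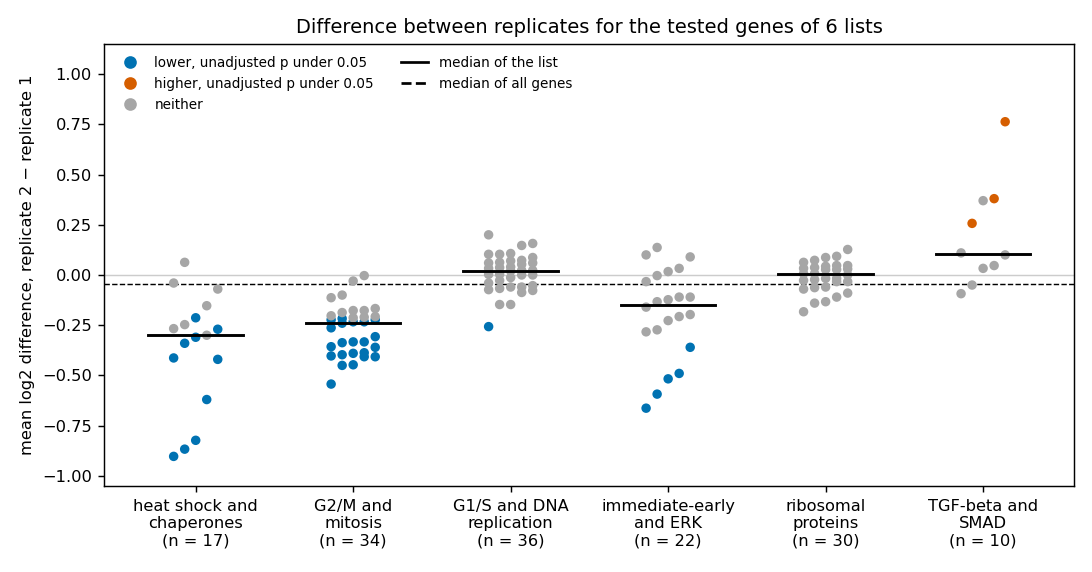
Mean log2 difference between replicate 2 and replicate 1 (vertical axis) for each tested gene of 6 lists (horizontal axis). Points are genes, coloured blue where lower and orange where higher at an unadjusted p under 0.05, solid bars are list medians and the dashed line is the median of all 11191 genes. The G2/M and chaperone points lie almost wholly below the dashed line, and those of G1/S and ribosomal protein genes lie around it.

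The element TTTGAA, searched on both strands of the same promoter windows, occurred at unlike shares in the 2 cell cycle lists. It was found in 19 of the 27 G2/M genes with a window, in 0 of 32 G1/S genes, and in 18.2% of all genes. In 12 of the G2/M genes it lay within the 60 bases before an annotated start. The CCAAT box, CCAAT on either strand, was in 24 of the 27 and 19 of the 32, against 39.7% of all genes. The last 80 bases before the start of 4 G2/M genes are shown because these members had large differences and carry the element there, with TTTGAA or its complement in capitals. They are chr7:36389782-36389861 for ANLN, chr10:60778398-60778477 for CDK1, chr5:163460552-163460631 for HMMR and chr15:69414269-69414348 for KIF23, all on the plus strand.
ANLN: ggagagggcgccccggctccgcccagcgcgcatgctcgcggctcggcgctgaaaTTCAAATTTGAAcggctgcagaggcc
CDK1: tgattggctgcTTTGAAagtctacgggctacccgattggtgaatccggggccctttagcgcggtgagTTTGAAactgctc
HMMR: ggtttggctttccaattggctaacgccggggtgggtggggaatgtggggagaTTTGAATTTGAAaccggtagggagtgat
KIF23: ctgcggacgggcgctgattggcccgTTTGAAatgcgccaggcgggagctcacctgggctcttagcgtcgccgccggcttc
ANLN and HMMR each hold 2 adjoining copies, beginning at bases -26 and -20 in ANLN and -28 and -22 in HMMR. CDK1 has copies at bases -69 and -13, and KIF23, a kinesin of the midbody, has 1 at base -55. Other members differed from these 4. KIF20A (-0.45) and CCNB1 (-0.407) had windows without the element. MKI67 (-0.113) and CENPA (-0.10) carried it within the 60 bases before a start. Whether the element goes with the size of the difference was not tested.

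The immediate-early and ERK feedback list had 5 of 22 tested members lower at an unadjusted p under 0.05 and 0 higher. Over all genes the shares were 9.51% and 1.51%. The list's median was -0.147. Its median was -0.335 in the control siRNA pair and -0.085 and -0.07 in the other 2. DUSP6, the phosphatase that removes phosphate from ERK, read 10.63, 8.02 and 7.57 in replicate 1 and 9.53, 7.55 and 7.15 in replicate 2. DUSP4, a related nuclear phosphatase, read 8.35, 7.26 and 7.48 in replicate 1 and 7.27, 6.91 and 7.13 in replicate 2. In both the control pair had the widest gap, of -1.10 and -1.08. KLF6, a zinc finger transcription factor, differed evenly: it read 8.42, 8.47 and 8.21 in replicate 1 and 7.84, 7.97 and 7.74 in replicate 2, and the replicates took 86.1% of its spread. DUSP5 (-0.49) and IER3 (-0.36) were also lower at that threshold. The members that did not pass it ran from -0.283 (NR4A2) to 0.137 (ATF3). Among them were EGR1 (-0.207), JUN (-0.123) and ETV5 (0.017).

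MIR21 and SOX9 were among the largest differences of named genes. MIR21, a microRNA gene often raised in carcinomas, read 8.22, 9.34 and 10.46 in replicate 1 and 7.19, 7.86 and 9.27 in replicate 2. Both siH19 treatments lay above the control siRNA in each replicate, and replicate 2 was 2.35-fold lower (SE 0.11 on the log2 scale). Its adjusted p in limma's fit was 0.18, and 0.0359 with 1 cluster per gene symbol. The array does not separate the microRNA from its precursor. The mature product is printed with its seed, bases 2 to 8, in capitals, because the seed sets which messages it can pair with. RefSeq places it at chr17:59841273-59841294 on the plus strand.
hsa-miR-21-5p: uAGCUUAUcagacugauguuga

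SOX9, a transcription factor of intestinal crypt cells, read 12.30, 12.19 and 10.56 in replicate 1 and 11.04, 11.29 and 9.81 in replicate 2, a 1.96-fold lower level. Its pairs differed by -1.26, -0.90 and -0.75, and the siH19-2 arrays were the lowest of each replicate. RNF43, a ubiquitin ligase that removes Wnt receptors from the surface, read 11.19, 11.18 and 10.29 in replicate 1 and 10.59, 10.74 and 9.76 in replicate 2. The list of Wnt targets and feedback genes did not follow it: its median was -0.43 in the control siRNA pair but 0.04 and 0.03 in the other 2, and 1 of 13 tested members was lower.

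Other genes lower in every pair have varied roles. PRKAA2, the alpha-2 catalytic subunit of AMP-activated kinase, read 7.53, 8.39 and 8.68 in replicate 1 and 6.87, 7.62 and 7.83 in replicate 2. ARRDC3, an arrestin-domain protein, had pair differences of -0.72, -0.77 and -0.57, beside a far larger spread between treatments. LIF, a cytokine of the interleukin 6 family, read 7.27, 6.64 and 6.56 in replicate 1 and 6.48, 6.21 and 6.08 in replicate 2, without overlap.

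CDKN1B, the cyclin-dependent kinase inhibitor p27, read 7.61, 7.24 and 7.25 in replicate 1 and 7.19, 6.82 and 6.87 in replicate 2. CD109, a surface protein that binds TGF-beta receptors, had pair differences of -0.55, -0.44 and -0.50. SLC2A1, the glucose transporter GLUT1, had differences of -0.56, -0.56 and -0.41. In the list of epithelial junctions and keratins 4 of 23 tested genes were lower at an unadjusted p under 0.05 and 0 higher. They were led by the desmosomal cadherin DSC2 at -0.55 and the keratin KRT19 at -0.45. Over all genes the shares were 9.51% lower and 1.51% higher, the background for each list of this paragraph. YAP1, the growth coactivator of the Hippo pathway, had -0.37, -0.50 and -0.39, while the list of its targets had 2 of 13 lower and 1 higher. Cholesterol synthesis genes had 5 of 19 lower and 0 higher. Their median of -0.15 was widest in the siH19-2 pair, at -0.20, and narrowest in the control pair, at -0.05. MSMO1, a sterol demethylase, had -0.37, -0.14 and -0.92 there, and HSD17B7, a sterol reductase, had -0.26, -0.39 and -0.24.

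Fewer genes were higher in replicate 2. ABCC2, the efflux pump MRP2, read 10.14, 9.98 and 10.50 in replicate 1 and 10.98, 10.80 and 11.25 in replicate 2. All 3 replicate 2 values lay above all 3 of replicate 1, and the difference was 1.75-fold (SE 0.07 on the log2 scale). Its adjusted p in limma's fit was 0.18, and 0.0456 with 1 cluster per gene symbol. CYP4F11, a cytochrome P450 that hydroxylates fatty acids, read 5.94, 7.19 and 5.19 in replicate 1 and 6.58, 7.96 and 5.79 in replicate 2, or 1.59-fold higher. ABCC2 was in the list of NRF2 and glutathione genes, in which 1 of 20 tested was higher and 1 lower, with a median of 0.038.

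The REV-ERB pair of clock repressors was higher in all 3 pairs. NR1D1, which encodes REV-ERB alpha, read 5.94, 6.55 and 5.87 in replicate 1 and 6.43, 7.15 and 6.47 in replicate 2. NR1D2, which encodes REV-ERB beta, read 8.17, 8.95 and 8.84 in replicate 1 and 8.92, 9.59 and 9.14 in replicate 2. Both were 1.48-fold higher, with adjusted p-values of 0.18 and 0.194 in limma's fit. Of the 10 tested genes in a list of clock components, put together after these values were seen, these 2 were higher at an unadjusted p under 0.05 and 0 were lower. BMAL1, the activator that REV-ERB represses, read 6.76, 6.45 and 6.47 in replicate 1 and 6.63, 6.23 and 6.42 in replicate 2, a difference of -0.13 that did not pass the unadjusted threshold.

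The clock activators bind the E-box CACGTG. It occurred in the windows of 3 of the 10 clock genes, against 8.77% of all genes. These were NR1D2, BHLHE40 and PER1, and NR1D1 had none. BHLHE40 differed by 0.117 and PER1 by 0.213, neither past the unadjusted threshold. A tie between the E-box and the difference was not tested. NR1D2 is shown because its window holds 2 copies, in capitals, at bases -155 and -105 within chr3:23945951-23946030 on the plus strand.
NR1D2: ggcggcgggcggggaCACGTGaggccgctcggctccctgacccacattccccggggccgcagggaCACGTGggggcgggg

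The TGF-beta and SMAD response list had the highest median of the lists with 10 or more tested members, 0.105. Of its 10 tested genes 3 were higher at an unadjusted p under 0.05 and 0 lower, against 1.51% and 9.51% of all genes. Its median was -0.04 in the control siRNA pair and 0.185 and 0.175 in the siH19-1 and siH19-2 pairs. ID3, an inhibitor of helix-loop-helix transcription factors, read 5.24, 5.26 and 5.09 in replicate 1 and 5.42, 6.33 and 6.13 in replicate 2. The gap was 0.18 in the control pair and 1.07 and 1.04 in the other 2. Its relative ID2 read 6.05, 6.23 and 6.36 in replicate 1 and 6.35, 6.62 and 6.81 in replicate 2, and the near-identical copy ID2B makes its signal uncertain. ID1 differed by 0.11, and TGFBR1, a TGF-beta receptor kinase, by 0.26.

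Among other genes higher in every pair, ASAP1, an Arf GTPase activator, had pair differences of 0.39, 0.44 and 0.47. RPS6KA5, the histone kinase MSK1, had 0.36, 0.46 and 0.57, and MBNL1, a splicing regulator, had 0.53, 0.33 and 0.40. The order of the treatments was the same in both replicates of each of these 3 genes. PTMS, parathymosin, read 10.15, 10.03 and 9.89 in replicate 1 and 10.45, 10.34 and 10.17 in replicate 2, a small but even gap without overlap.

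**Figure D4:**
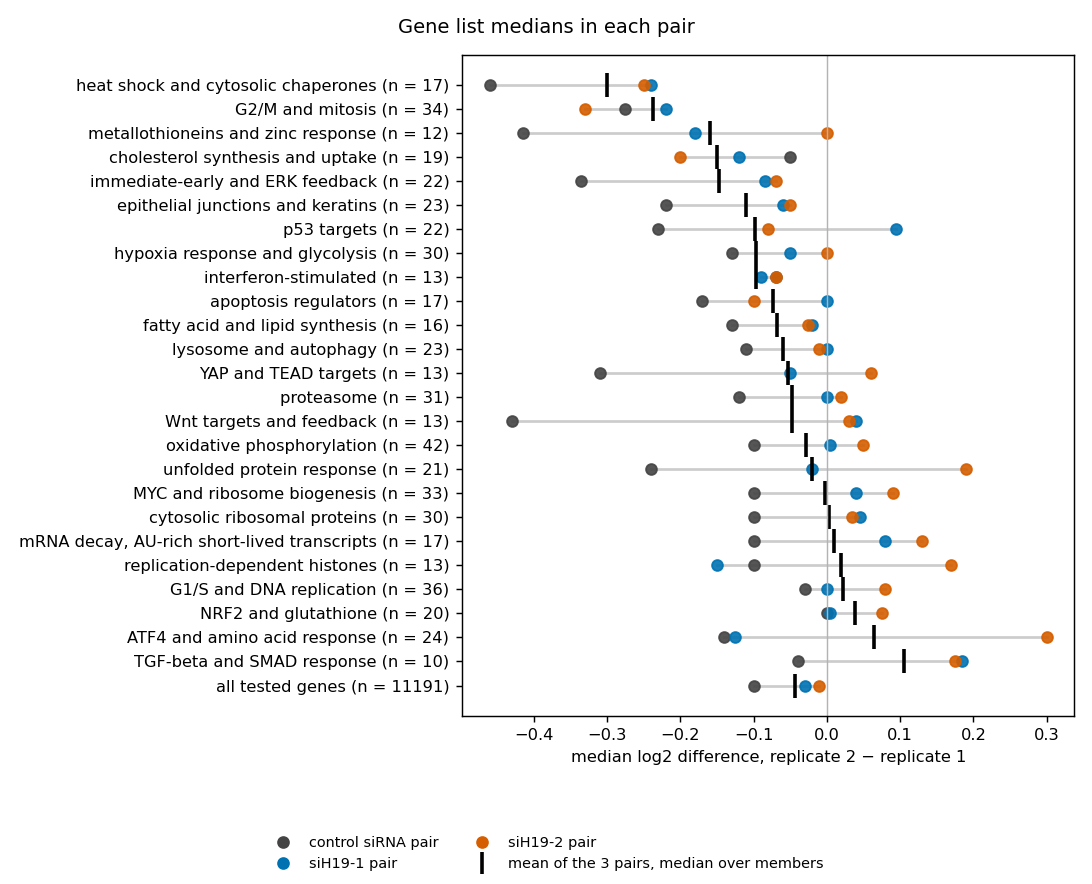
Median log2 difference between replicate 2 and replicate 1 (horizontal axis) of each gene list with 10 or more tested members, and of all genes. Coloured points are the 3 treatment pairs and black marks the median of the mean difference over the 3 pairs. The chaperone and G2/M lists lie to the left in all 3 pairs, and the control siRNA pair is the leftmost point of most lists.

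Short structured RNAs were the classes with the lowest medians. Of 224 tested clusters of 5S ribosomal RNA and its pseudogenes, 135 (60.3%) were lower at an unadjusted p under 0.05 and 0 higher. The shares over all genes were 9.51% and 1.51%. For 86 the replicate groups did not overlap and replicate 2 was lower, against 4.09% of all genes. The median of the 5S clusters was -0.363, with -0.43, -0.375 and -0.32 in the control siRNA, siH19-1 and siH19-2 pairs. RNA5SP162 had the largest difference of the 11191 genes. It read 6.75, 6.53 and 7.27 in replicate 1 and 5.16, 4.71 and 5.81 in replicate 2. RNA5SP202, close to the top of the scale, read 17.51, 16.70 and 17.45 in replicate 1 and 16.19, 15.90 and 16.70 in replicate 2. These loci are near-identical copies, so their clusters can share signal and count neither as separate genes nor as separate tests.

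The small nuclear RNA U6 of the spliceosome and its pseudogenes had 44 of 58 clusters lower at an unadjusted p under 0.05 and 0 higher, with a median of -0.445. Other U-class small nuclear RNAs had 31 of 79 lower and 2 higher. Small nucleolar RNAs, which guide chemical changes on ribosomal RNA, had 32 of 78 lower and 3 higher among the C/D box type and 24 of 57 lower and 1 higher among the H/ACA type. Messenger RNAs differed less: of 9470 protein-coding genes 651 (6.87%) were lower and 121 (1.28%) higher, with a median of -0.037. The 303 microRNA genes had a median of 0.007, with 28 lower and 19 higher.

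A few snoRNAs went against their class. SNORA23 read 17.65, 17.57 and 17.98 in replicate 1 and 18.03, 19.06 and 19.41 in replicate 2, the largest difference on the higher side among the 11191 genes with 1 symbol. SNORD51 read 9.42, 9.84 and 9.12 in replicate 1 and 10.21, 10.22 and 10.41 in replicate 2. In both the replicate groups did not overlap, and the siH19-1 gap was the widest for SNORA23 while the siH19-2 gap was the widest for SNORD51. 

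**Figure D5:**
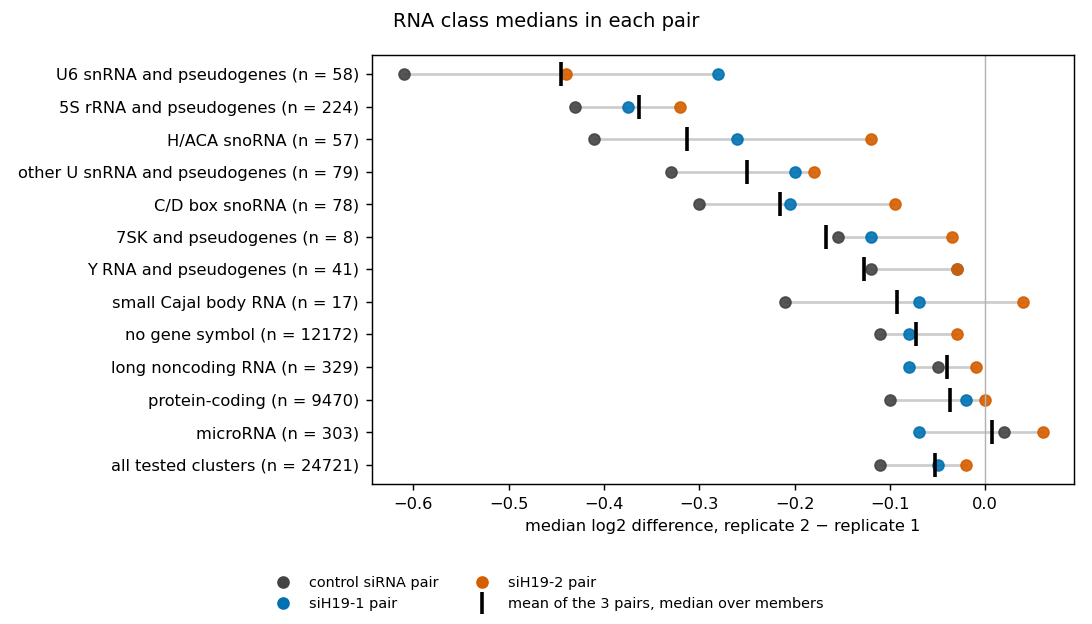
Median log2 difference between replicate 2 and replicate 1 (horizontal axis) of each RNA class. Coloured points are the 3 treatment pairs and black marks the median of the mean difference over the 3 pairs. U6, 5S and snoRNA clusters lie to the left of all tested clusters in every pair, and microRNA and protein-coding genes lie near 0.

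Genes of protein synthesis and energy supply had few or no members past the unadjusted threshold. Of 30 cytosolic ribosomal protein genes, 0 were lower and 0 higher at an unadjusted p under 0.05, with a median of 0.003 and a range of -0.183 to 0.127. The 33 genes of MYC and ribosome biogenesis and the 31 of the proteasome also had 0 in either direction, and oxidative phosphorylation had 1 lower and 1 higher of 42. No chromosome stood apart among protein-coding genes: over 23 chromosomes their median difference ran from -0.058 to -0.02.

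Some genes differed in a single pair only, by 1 or more there and by less than 0.25 in the others. GDF15, a stress cytokine, read 9.78 and 8.41 in the control siRNA pair, 9.19 and 9.08 with siH19-1, and 9.56 and 9.67 with siH19-2, in replicates 1 and 2. ADAM19, a membrane metalloprotease, read 10.26 and 9.09 in the control pair and moved by -0.01 and 0.12 in the others. MT1F, a metallothionein that binds zinc, read 10.12 and 9.08 in the control pair, with 0.18 and 0.05 in the others. SESN2, a stress-induced inhibitor of growth signalling, read 7.59 and 8.66 in the siH19-2 pair, with -0.17 and 0.12 in the others. With 1 pair per treatment, a difference between pairs has no test.

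Taking the replicate number into account changed the treatment comparison. The F test over the 3 treatments called 5956 of 24721 clusters (24.1%) at an adjusted p under 0.05 in limma, and 7639 (30.9%) with the replicate block.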

How the data were processed

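The authors deposited 1 table of log2 values per array, made with Affymetrix Expression Console and RMA, per the submitters' processing notes. Versions and the genome build are not given in the sources used here. Cells, doses and kit (WT PLUS) are as the labels' protocols state. Clusters without log2 5 in 2 or more arrays were left out. Symbols are those of GEO's annotation of the array, and 11089 genes matched RefSeq. The difference, replicate 2 minus replicate 1, was fitted with limma 3.58.1 (R 4.3.3) on treatment plus replicate, with a mean-variance trend in the empirical Bayes step and Benjamini-Hochberg adjustment over 24721 clusters. The fit has 2 residual degrees of freedom and 2.88 prior ones. The same fit was also run on simulated data built from these arrays, and no result here rests on that run. Of the tested clusters, 1250 share all 6 values with another cluster. The number of arrays limits the precision.

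Per gene, the cluster with the highest mean stood for the symbol in lists and in the alternative with 1 cluster per gene symbol. The members, the lists and the rule for named genes were chosen with earlier results of these data known. The rule took H19, the 15 genes per direction with the largest smallest-of-3 pair difference, up to 4 members of smallest p per list, and up to 4 genes per direction that differed in 1 pair alone. Protein-coding genes below the top 15, further members of the chaperone, G2/M and SMAD lists, BMAL1 and the clock list were added after their values were seen. The replicate numbers of the titles gave the pairs, and the labels name no other tie between the arrays. Pair differences correlated across clusters with r of 0.286, 0.203 and 0.198, and the source of this correlation was not tested. Promoter and microRNA sequences are those of RefSeq GRCh38.p14.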

Additional observations from a re-analysis of the deposited data

Results flagged for a closer look

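Among the lists with 10 or more tested members, 4 had a median of -0.1 or lower in at least 1 treatment pair and of 0.1 or higher in another. Further lists had medians of opposite sign but smaller size on 1 side, such as the Wnt list with -0.43, 0.04 and 0.03. With 1 pair per treatment, none of these differences was tested. The ATF4 and amino acid response genes had medians of -0.14 in the control siRNA pair, -0.125 in the siH19-1 pair and 0.30 in the siH19-2 pair, a span of 0.44. The unfolded protein response genes had -0.24, -0.02 and 0.19, a span of 0.43. The replication-dependent histone genes had -0.10, -0.15 and 0.17, a span of 0.32. The mRNA decay and AU-rich short-lived transcripts had -0.10, 0.08 and 0.13, a span of 0.23. In all 4 lists the siH19-2 pair was the highest.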

How the results depend on the processing

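The count of 0 clusters between replicates at an adjusted p under 0.05 became 28 with scaling to the array control rows and 13 with 1 cluster per gene symbol, and stayed 0 in the other alternatives, among them leaving out each pair. With no treatment block the smallest adjusted p was 1, and with treatment as a random block 0.0798. The 3720 clusters at an unadjusted p under 0.05 became 6367 with no filter, 1796 with 1 cluster per gene symbol and 928 with no treatment block, and ran from 2145 to 3116 when 1 pair was left out, lowest without the siH19-1 pair. Fewer clusters were tested with 1 per symbol and more with no filter. The other causes were not tested. The 5956 clusters that differed among treatments became 3580 with no filter and 7639 with the replicate block, and ran from 1360 to 5210 when 1 array was left out. They were 1360 without siH19-2 replicate 1, 2069 without siH19-2 replicate 2, 2491 without siH19-1 replicate 2 and 2533 without siH19-1 replicate 1. The paired fit, which is the main one between replicates, was compared with no treatment block above.

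Over 13 alternatives the median of the G2/M list ran from -0.3 to -0.148, that of the chaperones from -0.355 to -0.179, that of the 5S clusters from -0.463 to -0.303 and that of all genes from -0.065 to 0.028. The TGF-beta list ran from 0.082 to 0.183. Of 571 such list and class medians, 45 moved by more than 1 SD of the 3 pairs. Of 854 values of single genes over the alternatives, 11 changed sign and 17, of 12 genes or clusters, passed an adjusted p of 0.05 in the same direction. When 1 pair was left out, ADAM19 ran from -0.59 to 0.055, MT1F from -0.495 to 0.115, SESN2 from -0.025 to 0.595, FOXM1 from -0.155 to 0.085 and HSF1 from -0.075 to 0.24. The turned values came without the control siRNA pair for ADAM19 and MT1F, without the siH19-2 pair for SESN2 and HSF1, and without the control siRNA or the siH19-1 pair (0.06) for FOXM1. With quantile normalization MKI67 became 0.046, HSP90AA1 0.036, HSPD1 0.066 and FOXM1 0.108, and FOXM1 was 0.054 with scaling to the control rows. With 2 residual degrees of freedom, differences close to the spread between pairs were not detectable.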
